A study of Mus musculus with 8 samples.

Results

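The genes described here are the enzymes, transporters and regulators of glycolysis together with other genes that hypoxia induces, measured in mouse embryonic fibroblasts (MEFs) with and without a knock-in mutation of the transcription factor E2F3. The list held 36 genes, 18 of glycolysis and 18 other targets or parts of the hypoxia-inducible factor (HIF) pathway, named below as HIF genes. A gene was represented by its brightest probe among those detected (p under 0.05 against negative control beads) on at least 2 of the 8 arrays. Under this rule 30 of the 36 genes were measured, 15 in each group, among 10214 genes and unnamed probes tested in all. Under the gene symbols used here, 0 probes were named for *Ankrd37*, *Eno1* or *Gpi1*. The probe of *Pgk1* was detected on 1 array, and those of *Bnip3* and *Higd1a* on 0 arrays. Those 3 genes were left out of the tests. *Car9* and *Pfkfb3* passed the rule only through E2F3LQ arrays, so counts between the genotypes are also given over the other 28 genes.

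The MEFs came from C57BL/6 embryos at embryonic day 13.5. The mutant cells carried the L430Q change in E2F3, called E2F3LQ, which was designed to weaken the binding of E2F3 to the retinoblastoma protein. E2F3LQ/LQ cells and their wild-type (WT) counterparts came from crosses of heterozygous knock-in mice, after Cre recombinase had removed the selection cassette from the germ line. WT clones 1 and 16 and E2F3LQ clones 2 and 4 were each measured once while proliferating in medium with 10% FBS and once after 72 h without FBS, as the labels state it. The 4 groups therefore had 2 arrays each. The labels do not say whether each clone came from its own embryo, so the p-values measure the spread between these clones. With 2 arrays against 2, an exact two-sided permutation test cannot give a p below 0.333, and the tests below are those of limma over all 10214 features. The arrays had 12141 to 12420 detected probes of 25697. All 12 fibroblast markers tested were detected on all 8 arrays, and 5 of 8 epithelial markers on none. Of 12 proliferation genes tested, all 12 had a lower mean in starved cells and 11 passed limma, with a median log2 difference of -1.02. The array of proliferating E2F3LQ clone 2 differed over 2-fold from the average of the remaining proliferating arrays in 685 features, while each of the remaining ones, measured the same way, did so in 103 to 223.

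In glycolysis, glucose is taken up by facilitated transporters, trapped by hexokinase, committed by phosphofructokinase, split by aldolase, and carried through to pyruvate, which lactate dehydrogenase reduces to lactate. HIF is a dimer of an oxygen-labile α subunit, such as the product of *Hif1a*, and a stable partner encoded by *Arnt*. While oxygen is present, prolyl hydroxylases of the EGLN family mark the α subunit for destruction through VHL. When oxygen is low, HIF binds short elements near many genes of glycolysis, blood vessel growth and matrix synthesis and raises their transcription. Growth factors in serum can also raise HIF1A synthesis and glycolytic flux in fibroblasts.

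The core of the element that HIF binds, ACGTG or GCGTG, was searched on both strands in the 250 bases before each annotated start site (RefSeq, GRCm38.p6). Matches were allowed to overlap, so that CACGTG counts on both strands. A window was given for 32 of the 36 genes, with 44 start sites among them, and 36 of these windows (81.8%) held a match, against 38.6% of all 32851 windows of this length. Both motifs hold a CG pair, and the members' windows had a median of 15.0 CG pairs, against 6 over all windows. A match in these windows is a description and not a binding site. Stretches are shown for the called starvation genes that had a window, *P4ha1*, *Pfkp* and *Gapdh*, and for *Egln3* and *Fam162a*, the HIF genes with the largest difference in proliferating clone 2. Each is written 5′ to 3′ on the strand of the gene, with the matches in capitals. They lie at chr10:59323118-59323295 on the plus strand (*P4ha1*, 3 matches) and, all on the minus strand, at chr13:6648775-6648922 (*Pfkp*, 3 matches), chr6:125165798-125165842 (*Gapdh*, 2 matches), chr12:54204084-54204118 (*Egln3*, 1 match) and chr16:36071562-36071789 (*Fam162a*, 6 matches).
P4ha1: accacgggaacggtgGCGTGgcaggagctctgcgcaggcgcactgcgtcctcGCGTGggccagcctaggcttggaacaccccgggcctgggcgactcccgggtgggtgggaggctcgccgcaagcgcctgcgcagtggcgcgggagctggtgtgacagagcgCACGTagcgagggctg
Pfkp: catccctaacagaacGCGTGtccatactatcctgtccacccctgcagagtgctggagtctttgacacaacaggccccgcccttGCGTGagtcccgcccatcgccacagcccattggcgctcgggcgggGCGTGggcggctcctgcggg
Gapdh: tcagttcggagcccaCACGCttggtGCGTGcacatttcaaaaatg
Egln3: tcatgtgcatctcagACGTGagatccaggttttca
Fam162a: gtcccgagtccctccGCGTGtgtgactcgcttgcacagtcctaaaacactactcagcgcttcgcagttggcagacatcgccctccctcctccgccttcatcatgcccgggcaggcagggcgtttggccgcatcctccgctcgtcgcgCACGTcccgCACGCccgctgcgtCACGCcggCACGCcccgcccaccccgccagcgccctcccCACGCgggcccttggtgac

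The first question was how glycolysis and HIF genes differed between proliferating and serum-starved MEFs. Averaged over both genotypes, 4 of the 30 genes passed limma (adjusted p under 0.05), against 22.4% of all features. Among the HIF genes *P4ha1* and *Ndrg1* rose, and among the glycolysis genes *Pfkp* and *Gapdh* fell. The background was 10.9% of features higher (1116) and 11.5% lower (1172), so the share of members called was no larger than that of all features. When the arrays were scaled to a common median, 538 features were called higher and 1479 lower, 19.7% in all, and 6 of the 30 genes were called. The median log2 difference, starved minus proliferating, was -0.25 over the 15 glycolysis genes and 0.24 over the 15 HIF genes, against 0.0011 over all features. A positive difference was found for 3 glycolysis genes and 9 HIF genes, against 50.1% of all features. All 4 clones were lower in 7 glycolysis genes and higher in 0, while 23.7% of all features were lower and 23.8% higher in all 4 clones. Among the HIF genes, 3 were higher and 1 was lower in all 4 clones.

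**Figure D1:**
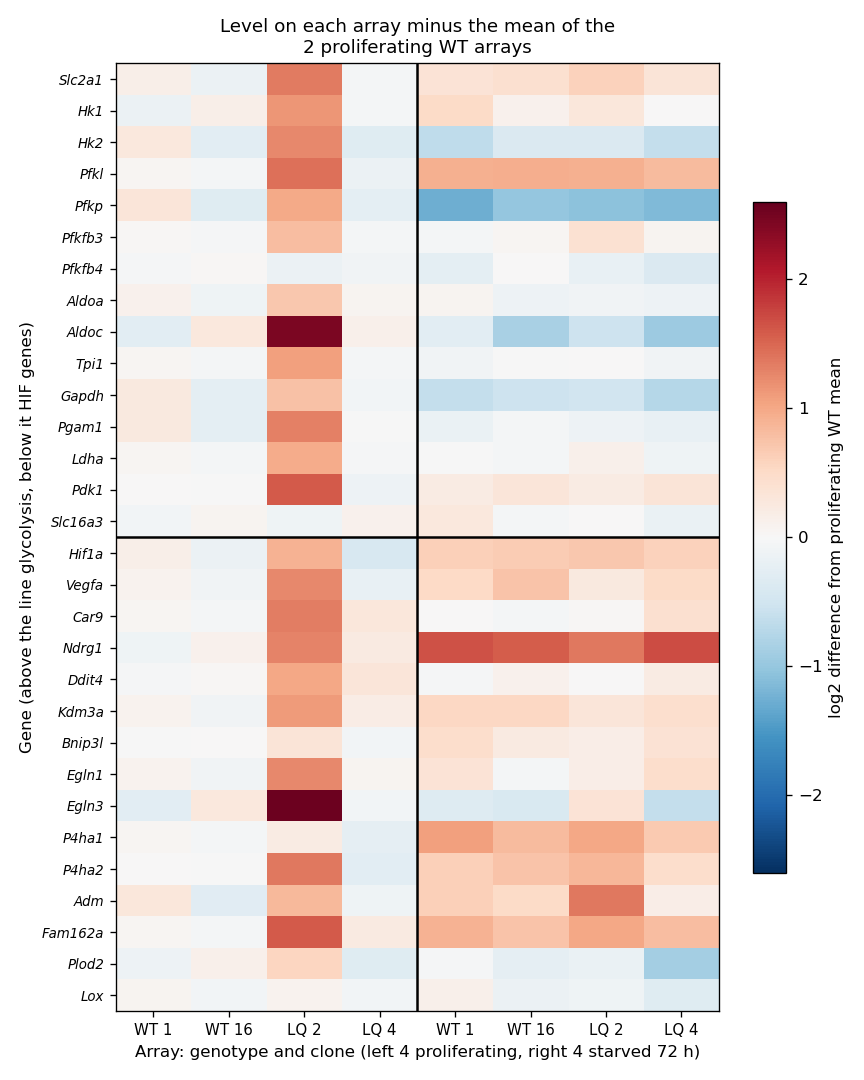
Level of each of the 30 genes (rows) on each of the 8 arrays (columns), drawn as the log2 difference from the mean of the 2 proliferating WT arrays, with red above and blue below it. The column of proliferating E2F3LQ clone 2 is red for 28 of the 30 genes, while *Pfkp* and *Gapdh* are blue and *Ndrg1* and *P4ha1* red on all 4 starved arrays.

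*P4ha1* encodes the catalytic subunit of a collagen prolyl 4-hydroxylase, which collagen needs for a stable triple helix. Its normalized log2 signal in proliferating cells was 6.74 and 6.64 in WT clones 1 and 16 and 6.90 and 6.46 in E2F3LQ clones 2 and 4, and in starved cells it was 7.76, 7.51, 7.70 and 7.38 in the same order. Every starved array lay above every proliferating one. Its log2 difference was 0.90 (standard error 0.15, limma adjusted p = 0.00730), and the 4 clones ranged from 0.79 to 1.01. *Ndrg1*, a stress-responsive gene that HIF and growth arrest both induce, had 6.91 and 7.11 in proliferating WT clones and 8.30 and 7.25 in E2F3LQ clones 2 and 4. In starved cells it was at 8.66 and 8.58 in WT and at 8.37 and 8.71 in E2F3LQ. The starved arrays again lay above all proliferating ones, but clone 2 was already high while proliferating and moved by only 0.075, against 1.46 to 1.75 in the other 3 clones. Averaged over genotypes *Ndrg1* rose by 1.19 (standard error 0.23, limma adjusted p = 0.0122).

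*Pfkp*, the platelet type of phosphofructokinase, which catalyzes the committed step of glycolysis, was at 8.68 and 8.07 in proliferating WT clones 1 and 16 and at 9.35 and 8.13 in E2F3LQ clones 2 and 4. After starvation it was at 7.10, 7.37, 7.30 and 7.22, below every proliferating array. Its log2 difference was -1.31 (standard error 0.28, limma adjusted p = 0.0171), or 0.404-fold. A dimmer passing *Pfkp* probe gave a smaller difference of -0.43. On it E2F3LQ clone 4 was at 5.60 while proliferating and at 5.67 after starvation, so the conditions overlapped. *Gapdh*, which oxidizes glyceraldehyde 3-phosphate and often serves as a reference gene, was at 13.75, 13.23, 14.25 and 13.42 in proliferating clones 1, 16, 2 and 4. In starved cells it was at 12.87, 12.96, 12.98 and 12.75. The conditions did not overlap, and its log2 difference was -0.77 (standard error 0.21, limma adjusted p = 0.0385). Leaving out 1 array at a time gave between 1 and 14 called members, and *P4ha1* was called each time. *Pfkp* and *Gapdh* each lost their call on leaving out any of 5 of the 8 arrays, and *Ndrg1* on any of 3.

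**Figure D2:**
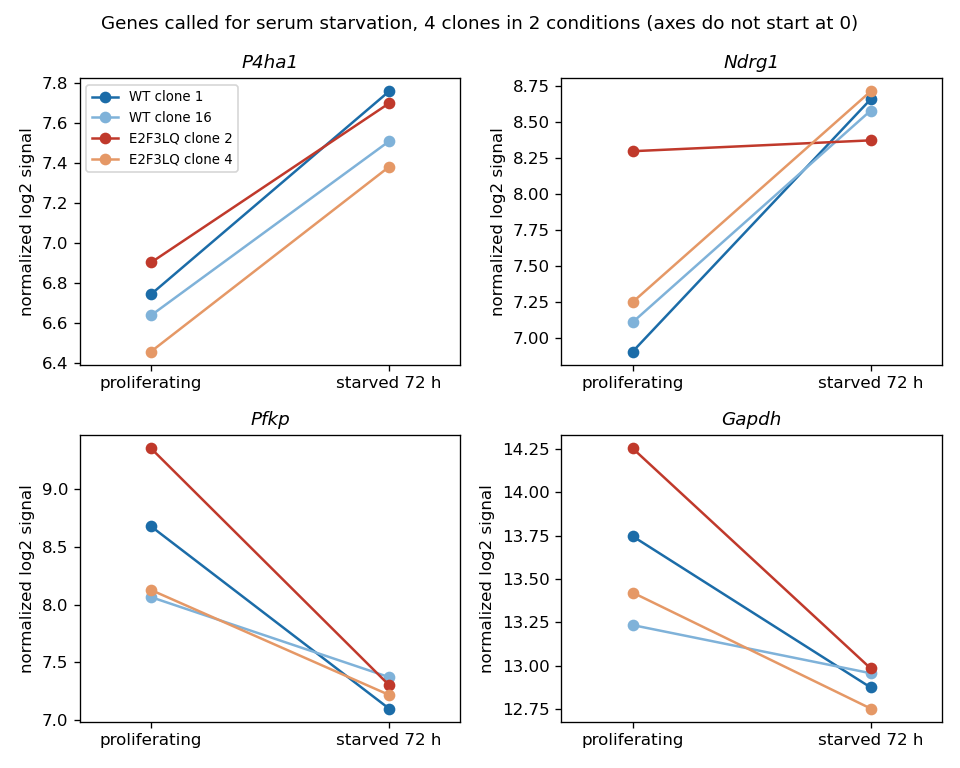
Normalized log2 signal (y axis, not starting at 0) of the 4 genes called for starvation in each clone while proliferating and after 72 h of starvation, with a line joining the 2 arrays of a clone. All 4 clones go up for *P4ha1* and down for *Pfkp* and *Gapdh*, while for *Ndrg1* E2F3LQ clone 2 starts high at 8.30 and ends at 8.37.

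The remaining glycolysis genes are taken in the order of the pathway. *Slc2a1*, the basal glucose transporter GLUT1, was at 10.17 and 9.87 on the log2 scale in proliferating WT, 11.36 and 9.97 in E2F3LQ clones 2 and 4, and 10.35 to 10.62 on the starved arrays. Its starvation difference of 0.10 did not pass limma (95% interval -0.57 to 0.78). Of the hexokinases, *Hk1*, the broadly expressed form, differed by -0.047. *Hk2*, the inducible form, was at 9.96, 9.42, 10.94 and 9.39 in proliferating clones 1, 16, 2 and 4 and at 9.03, 9.32, 9.32 and 9.07 in starved ones. It was lower in all 4 clones and below all proliferating arrays, but its difference of -0.75 did not pass (limma adjusted p = 0.146).

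*Pfkl*, the liver type of phosphofructokinase, went the other way from *Pfkp* in 3 clones. It was higher after starvation by 0.87 and 0.99 in WT clones 1 and 16 and by 0.99 in E2F3LQ clone 4, and lower by 0.50 in clone 2, where the proliferating level was 11.32 against 9.74 to 9.94 in the other clones. The starved arrays lay close together, between 10.72 and 10.83. Its averaged difference of 0.59 did not pass (limma adjusted p = 0.214). A dimmer *Pfkl* probe gave -0.026, so the sign of this difference depends on the probe. *Pfkfb4* and *Pfkfb3* encode enzymes that set the level of fructose 2,6-bisphosphate, an activator of phosphofructokinase. *Pfkfb4* was between 7.13 and 7.53 on all arrays, and *Pfkfb3* was detected only on the 2 arrays of E2F3LQ clone 2, at 5.34 proliferating and 4.93 starved.

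The aldolases are the enzymes that split fructose 1,6-bisphosphate. *Aldoa*, the muscle and general form, was at 11.08 and 10.84 in proliferating WT, at 11.66 and 11.03 in proliferating E2F3LQ clones 2 and 4, and between 10.82 and 11.03 after starvation. *Aldoc*, the brain form and a HIF target, was at 5.28, 5.83, 8.0 and 5.68 in proliferating clones 1, 16, 2 and 4 and at 5.27, 4.72, 5.02 and 4.62 in starved ones. Its signal was not above background in starved WT clone 16 and E2F3LQ clone 4. The starved *Aldoc* values lay below all proliferating ones, in WT clone 1 by only 0.0058, and the averaged difference of -1.29 did not pass limma (adjusted p = 0.0901).

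Of the later steps of the pathway, *Tpi1*, the triose phosphate isomerase, differed by -0.13, 0.033 and -0.043 in clones 1, 16 and 4, and *Ldha*, the lactate dehydrogenase subunit that favors lactate, by -0.064, -0.0041 and -0.095. *Pgam1*, the phosphoglycerate mutase, differed by -0.41, 0.20 and -0.17. In clone 2 the same genes were lower after starvation by -1.05 (*Tpi1*), -0.85 (*Ldha*) and -1.46 (*Pgam1*). *Pdk1*, a kinase that shuts off pyruvate dehydrogenase, was at 0.21, 0.31 and 0.45 in clones 1, 16 and 4 and at -1.38 in clone 2. *Slc16a3*, the lactate exporter MCT4, was close to background, detected on 4 arrays at 4.77 to 5.04. Another of its probes, which did not pass the detection rule, was detected on 1 array, proliferating clone 2, at 6.80.

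Among the HIF genes, *Hif1a* itself was at log2 signals of 8.21 and 7.93 in WT proliferating, 8.98 and 7.65 in proliferating E2F3LQ clones 2 and 4, and 8.69, 8.74, 8.77 and 8.67 in starved clones 1, 16, 2 and 4. It was higher after starvation in 3 clones, by 0.47, 0.81 and 1.02, and lower by 0.21 in clone 2. The average of 0.52 did not pass limma (95% interval -0.11 to 1.16, adjusted p = 0.205). *Vegfa*, the main growth factor of blood vessels, was at 8.36 and 8.18 in proliferating WT, 9.52 and 8.08 in E2F3LQ clones 2 and 4, and 8.79, 9.01, 8.52 and 8.77 after starvation. It was higher by 0.43, 0.84 and 0.70 in clones 1, 16 and 4 and lower by 1.00 in clone 2. Its second probe was at 7.78, 7.58, 9.45 and 7.65 in proliferating and at 7.36, 7.60, 7.51 and 7.38 in starved clones 1, 16, 2 and 4, and gave an averaged difference of -0.65 against 0.24 for the first. For *Vegfa* the direction under starvation therefore depended on the probe.

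Some other HIF genes showed the same arrangement as *Hif1a*. *P4ha2*, the second catalytic subunit of collagen prolyl 4-hydroxylase, was higher after starvation by 0.61, 0.75 and 0.75 in clones 1, 16 and 4 and lower by 0.51 in clone 2. *Fam162a*, a mitochondrial protein induced by HIF, was higher by 0.84, 0.81 and 0.57 and lower by 0.59 in clone 2. *Kdm3a*, a histone H3 lysine 9 demethylase, was higher by 0.46, 0.63 and 0.24 and lower by 0.78. None of these passed limma averaged over genotypes. *Adm*, the vasodilator peptide adrenomedullin, was higher in all 4 clones by 0.27 to 0.78, with an average of 0.48 that did not pass. *Bnip3l*, a mitophagy receptor, was higher by 0.23 to 0.46 in 3 clones and lower by 0.16 in clone 2.

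*Egln1* and *Egln3* encode the oxygen-sensing prolyl hydroxylases. *Egln1* was at 5.42, 5.23, 6.56 and 5.40 in proliferating clones 1, 16, 2 and 4 and between 5.28 and 5.78 on the starved arrays. *Egln3* was at 4.91, 5.47, 7.73 and 5.11 while proliferating and at 4.86, 4.79, 5.55 and 4.58 after starvation, the last not above background. It was lower in all 4 clones, by 0.058, 0.69, 2.19 and 0.53 in clones 1, 16, 2 and 4, and the average of -0.87 did not pass. *Plod2*, a lysyl hydroxylase of collagen, and *Lox*, the lysyl oxidase that cross-links collagen, had averaged differences of -0.39 and -0.12. The stress gene *Ddit4*, an inhibitor of mTORC1, stood at -0.26.

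**Figure D3:**
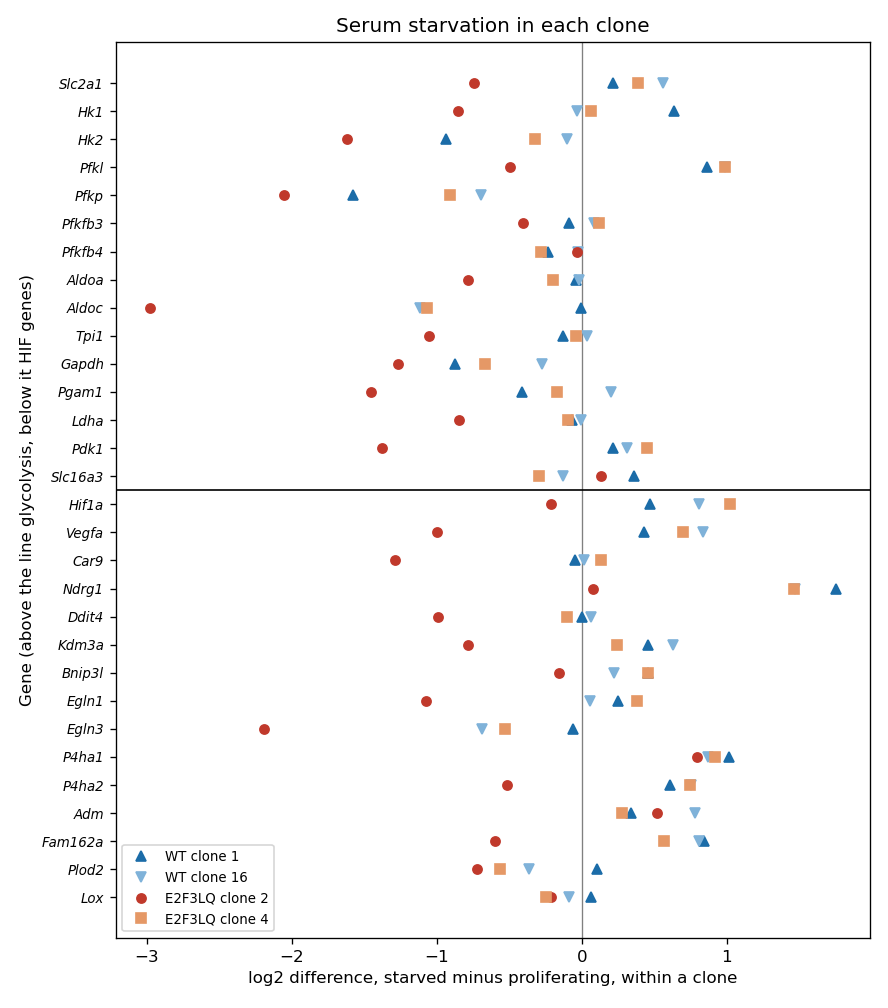
Log2 difference, starved minus proliferating, in each of the 4 clones (x axis) for each gene (y axis). For most genes WT clones 1 and 16 and E2F3LQ clone 4 lie together and clone 2 lies to their left, from -2.98 for *Aldoc* to 0.79 for *P4ha1*.

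Within WT cells, 2 of the 30 genes passed limma for starvation, both HIF genes and both higher, against 3.87% of features higher and 4.3% lower. *Ndrg1* rose by 1.61 (standard error 0.32, limma adjusted p = 0.0307) and *P4ha1* by 0.94 (standard error 0.21, limma adjusted p = 0.0406). Both lost their call on leaving out any 1 of 6 arrays, all except the 2 of proliferating E2F3LQ cells, with no detection filter and with the methods' t-test (the plain t-test that the study's methods name), and *P4ha1* also under median scaling. In both WT clones 9 HIF genes had starved levels above proliferating ones without overlap and 1 below, and for glycolysis 3 lay above and 4 below. Over all features 30.3% lay above and 32.2% below. The median of the HIF genes was 0.54 and that of the glycolysis genes -0.034, against -0.0088 over all features. Within E2F3LQ cells 0 of the 30 genes passed, against 2.46% of features higher and 2.14% lower. *P4ha1* (0.86), *Ndrg1* (0.77), *Pfkp* (-1.48), *Gapdh* (-0.97) and *Aldoc* (-2.02) had an unadjusted p under 0.05, as did 23.9% of all features, with limma adjusted p from 0.0653 to 0.203.

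The E2F3LQ values depended on the array of proliferating clone 2. Without it (replicate 1), limma called 11 of the 30 genes for starvation averaged over genotypes, 8 higher and 3 lower, against 13.6% and 15% of all features. *Hif1a* (0.86), *Vegfa* (0.60), *P4ha2* (0.81), *Fam162a* (0.75), *Pfkl* (0.98) and *Slc2a1* (0.45) were then called higher beside *Ndrg1* and *P4ha1*, and *Aldoc* (-0.71) lower beside *Pfkp* and *Gapdh*. Without clone 4 in place of clone 2 (replicate 2), 14 were called, 2 higher and 12 lower (11 without *Car9*), against 15.5% and 14.5% of all features, and 9 of the lower ones were glycolysis genes. In these fits the lone array of a group was taken to vary like the other groups. All groups share an estimate of the spread, so leaving out an array changes it for every comparison. More genes were called in WT without either proliferating E2F3LQ array, although no WT value changed.

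Beside the members, 19 of 35 further genes of glucose metabolism, 10 of 17 HIF regulators and 28 of 34 further HIF targets were tested. Averaged over genotypes starvation raised 2 and lowered 5 of the 19 metabolic genes, against the 10.9% of all features higher and 11.5% lower. *Eno3*, the muscle enolase, fell by 2.13 and *Slc2a3*, the high-affinity glucose transporter GLUT3, by 0.93, while *Pdk4*, a pyruvate dehydrogenase kinase of fasting, rose by 1.03 and *Pfkm*, the muscle phosphofructokinase, by 0.58. *Pgam2*, *Pdhb* and *Taldo1* were called lower at -0.71, -0.45 and -0.64. Of the 10 HIF regulators 0 rose and 3 fell, against the same background: *Arnt*, the partner of HIF1A, at -0.77, the coactivator *Ep300* at -0.40 and the repressor *Bhlhe40* at -0.74. Each of the called metabolic genes and called HIF regulators had a limma adjusted p between 0.00196 and 0.0462.

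Of the 28 further HIF targets, 7 rose and 4 fell, against 10.9% of all features higher and 11.5% lower. *Angptl4*, an inhibitor of lipoprotein lipase that HIF and fasting both induce, was at 7.54, 7.79, 11.21 and 7.28 in proliferating clones 1, 16, 2 and 4 and at 12.39, 12.20, 12.53 and 12.50 after starvation. It was above all proliferating arrays in every starved clone. Clone 2 was alone in being high before starvation, and rose least. Its difference was 3.95 (standard error 0.74, limma adjusted p = 0.0109). The growth factor binding protein *Igfbp3* rose by 1.54, *Selenbp1* by 1.43, *Ppp1r3c* by 0.95, the demethylase *Kdm4b* by 0.77, *Rora* by 0.72 and the cyclin *Ccng2* by 0.52. The transferrin receptor *Tfrc* fell by 1.37, *Loxl4* by 1.16, *Nfil3* by 0.78 and *P4hb* by 0.57. *Loxl4* was not above background in starved E2F3LQ cells, where it was at least 1.88-fold lower than in proliferating ones.

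The second question was whether E2F3LQ changed these genes. In proliferating cells limma called 0 of the 30 genes, and 0% of all features. Means were nevertheless higher in E2F3LQ for 27 of the 30 genes, and for 25 of the 28 without *Car9* and *Pfkfb3*, against 44.7% of all features. Over those 28 the medians were 0.49 for glycolysis and 0.54 for HIF genes, against -0.025 over all features. Of the related genes outside the list, 15 of the 28 further HIF targets were higher (median 0.079), as were 6 of the 10 HIF regulators (median 0.068) and 14 of the 19 further genes of glucose metabolism (median 0.19). Without adjustment 4 of the 28 genes had p under 0.05, all HIF genes and all higher, against 1.13% of features higher and 1.7% lower. On the probes used, these 4 were also those in which both E2F3LQ clones lay above both WT clones, against 9.54% of features higher and 12.3% lower. In the opposite direction *Pfkfb4* had both E2F3LQ clones below both WT clones.

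The 4 genes were *Ddit4*, *Ndrg1*, *Kdm3a* and *Fam162a*. *Ddit4* was at 9.20 and 9.27 in WT and at 10.24 and 9.54 in E2F3LQ clones 2 and 4, a difference of 0.66 (standard error 0.24). *Kdm3a* was at 8.31 and 8.15 in WT and at 9.33 and 8.43 in E2F3LQ, a difference of 0.65 (standard error 0.28). *Fam162a* was at 9.94 and 9.83 in WT and at 11.49 and 10.12 in E2F3LQ, a difference of 0.92 (standard error 0.39). *Ndrg1*, whose values stand above, had a difference of 0.77 (standard error 0.32). On a second passing probe the *Ndrg1* clones overlapped, at 5.93 and 6.99 in WT and 7.14 and 6.30 in E2F3LQ. *Kdm3a* also overlapped on another passing probe, at 7.43 and 6.99 in WT and 8.36 and 7.18 in E2F3LQ. On the probes used, clone 4 exceeded the WT mean in each of these 4 genes by 0.20 to 0.31 and clone 2 by 1.01 to 1.60. Each gene had a limma adjusted p of 0.999.

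*Car9*, the cell-surface carbonic anhydrase that is a sensitive marker of HIF activity, was detected on 2 arrays, both of E2F3LQ cells, and passed the detection rule only through them. It had 4.43 and 4.31 in proliferating WT, 5.70 and 4.66 in proliferating E2F3LQ clones 2 and 4, 4.38 and 4.33 in starved WT and 4.41 and 4.79 in starved E2F3LQ clones 2 and 4. The 2 arrays above background were proliferating clone 2 and starved clone 4. The proliferating E2F3LQ mean had 1 of its 2 arrays above background, so a fold against WT is not given. The difference from WT did not pass (limma adjusted p = 0.999). In *Aldoc* the E2F3LQ mean was 1.29 above that of WT (standard error 0.66, limma adjusted p = 0.999), with clone 4 at 5.68 between the WT clones.

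The clones of E2F3LQ thus gave different pictures. Proliferating clone 2 was the highest of the 4 proliferating arrays for 26 of the 28 genes left without *Car9* and *Pfkfb3*, 12 of 14 for glycolysis and 14 of 14 for HIF genes, against 26.5% of all features. It was the highest of all 8 arrays for 21 of the 28, against 15.9% of all features. Its difference from the WT mean exceeded 1 on the log2 scale for 16 of the 28, against 4.03% of all features, and had a median of 1.10 for glycolysis and 1.05 for HIF genes. In clone 4 that difference exceeded 0.5 for 0 of the 30 genes, and its medians over the 28 were -0.057 and -0.080. The WT clones also differed while proliferating, with clone 1 above clone 16 for 21 of the 30 genes, against 46.7% of all features. That WT difference had a median of 0.11 and reached 0.61. Without the clone 2 array 8 of the 28 genes were higher in E2F3LQ and 0 were called, with 0 of all features. Without the clone 4 array limma called 17 of the 28, all higher, against 2.81% of features higher and 1.16% lower.

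In clone 2 most of the measured steps were above WT. *Slc2a1* was 2.53-fold, *Hk1* 2.21-fold, *Hk2* 2.38-fold, *Pfkl* 2.69-fold, *Pfkp* 1.98-fold, *Aldoa* 1.63-fold, *Tpi1* 2.09-fold, *Gapdh* 1.70-fold, *Pgam1* 2.49-fold, *Ldha* 1.96-fold and *Pdk1* 3.03-fold the WT mean. The largest values were those of *Egln3*, at 5.82-fold, and *Aldoc*, at 5.45-fold. *Pfkfb4* was an exception, at 0.898-fold. The *Slc16a3* probe used was not above background in proliferating clone 2, where another of its probes was detected. The enolase *Eno2*, outside the list, was at 8.49 in clone 2 and at 8.69 and 8.83 in WT. Among the HIF genes *Lox*, *P4ha1* and *Bnip3l* had the smallest excess, at 1.07-fold, 1.16-fold and 1.26-fold, and *Hif1a* mRNA was 1.88-fold. Of the 8 members with more than 1 passing probe, 18 of the 19 probes were highest in clone 2 among the proliferating arrays. These are 1 array's values, with no replicate of clone 2.

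**Figure D4:**
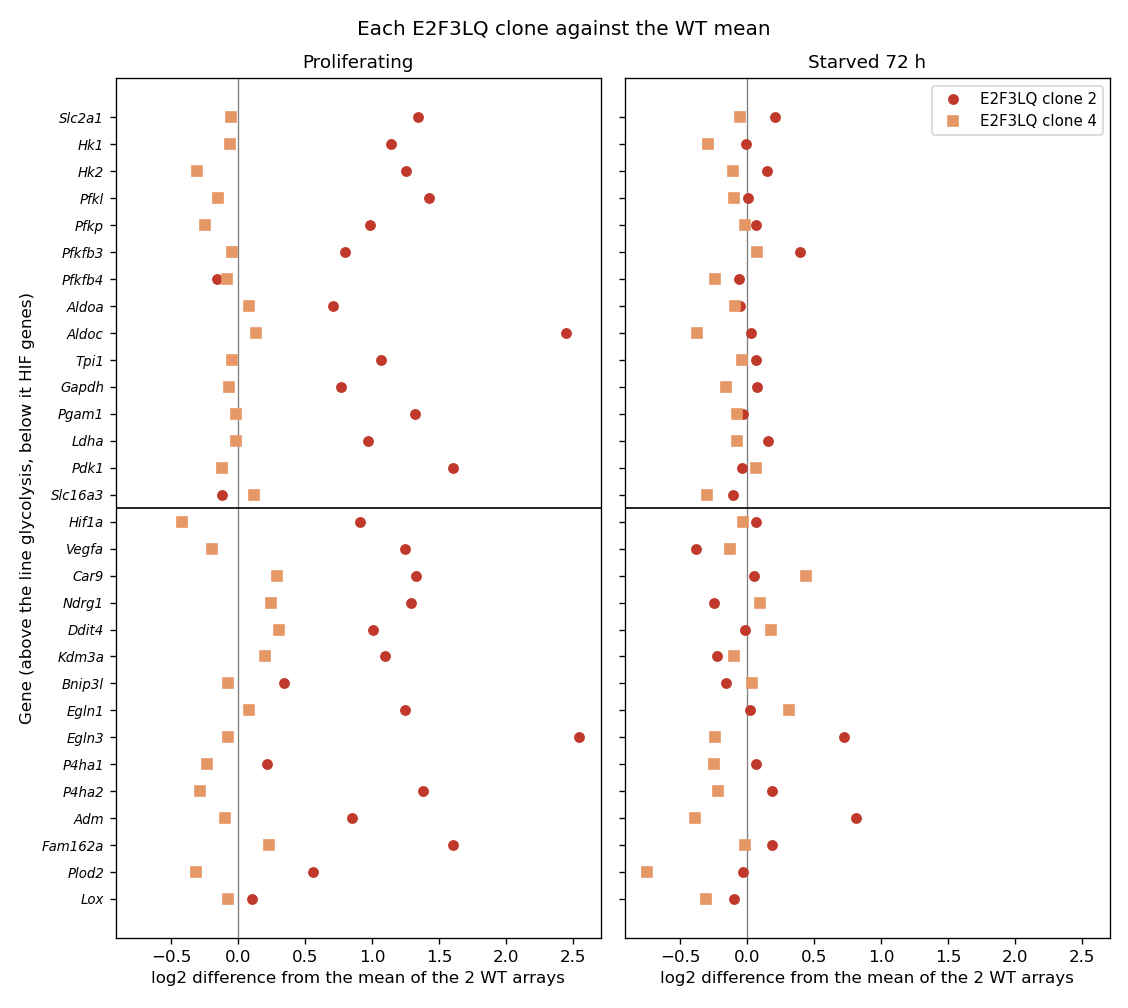
Log2 difference of each E2F3LQ clone from the mean of the 2 WT arrays (x axis) for each gene (y axis), in proliferating (left) and starved (right) cells. Proliferating clone 2 reaches 2.54 for *Egln3* and 2.45 for *Aldoc* while clone 4 stays between -0.42 and 0.31, and after starvation both clones lie between -0.75 and 0.81.

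Other measures of that array are given beside this result. The log2 of the summed signal of the macrophage markers, 9 of 13 of which were tested, was 12.51 and 11.44 in proliferating WT and 11.97 and 9.68 in E2F3LQ clones 2 and 4. That of the endothelial markers, 4 of 8 tested, was 9.06 and 8.86 in WT and 8.26 and 8.43 in E2F3LQ, and that of the epithelial markers, 2 of 8 tested, was 6.03 and 5.71 in WT and 6.75 and 6.48 in E2F3LQ. The proliferation genes were at 11.91 and 12.02 in WT and at 11.80 and 12.36 in E2F3LQ. Single macrophage markers of clone 2 went different ways. *Lyz2* (11.38) and *Adgre1* (7.34) lay above both WT clones, and *C1qa*, *C1qb*, *C1qc*, *Mrc1*, *Cx3cr1* and *Laptm5* below both. The median difference of the 9 macrophage markers from WT was -0.92 in clone 2 and -2.23 in clone 4. For the 12 fibroblast markers the sums were 15.36 in both WT clones and 15.25 and 15.31 in E2F3LQ. Their median difference was -0.30 in clone 2 and -0.0028 in clone 4. In clone 2, 3 of the 12 lay above both WT clones, among them *Dcn* (12.29) and *Lum* (11.41). *Col1a1* (12.09), *Col1a2* (8.10) and *Col3a1* (6.38) lay below both. The number of detected probes in clone 2, 12311, lay within the range of the other arrays. The part of cell makeup or culture state in the clone 2 levels was not tested. In bulk RNA, a change in the share of a cell type and a change in RNA per cell cannot be told apart.

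After starvation the genotypes lay close together. limma again called 0 of the 30 genes, and 0% of all features, and 14 of the 30 (12 of the 28) had a higher mean in E2F3LQ, against 50.6% of all features. The medians were -0.047 for glycolysis and -0.018 for HIF genes, and turned to 0.062 and 0.083 with median scaling, which moved the median of all features from 0.0024 to 0.086. With quantile normalization the 30 differences lay between -0.39 and 0.25. None had an unadjusted p under 0.05 (0 of 30, against 0.959% of features higher and 1.25% lower). The 95% intervals lay within 1 log2 unit of 0 for 18 of the 30 genes and were wider for the other 12, reaching -1.73 for *Aldoc* and 2.02 for *Egln3*, so that a 2-fold difference lay inside the interval of each of those. On the probes used, both E2F3LQ clones lay below both WT clones in *Vegfa* and *Kdm3a*, against 16.9% of all features. Other passing probes of these genes did not show this. The clones overlapped on the second *Vegfa* probe. On another *Kdm3a* probe both E2F3LQ clones lay above both WT clones (difference 0.14), and on a further one they overlapped (0.023).

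The smallest p in starved cells belonged to *Plod2*, at 8.86 and 8.66 in WT and 8.73 and 8.01 in E2F3LQ clones 2 and 4, a difference of -0.39 (standard error 0.34, limma adjusted p = 1). The clones overlapped, and clone 4 alone was low. *Lox* was at 13.88 and 13.58 in WT and at 13.63 and 13.42 in E2F3LQ, a difference of -0.20. *Slc16a3* was at 5.04 and 4.72 against 4.77 and 4.58, a difference of -0.20, and *Pfkfb4* at 7.24 and 7.50 against 7.31 and 7.13, a difference of -0.15. *Pfkfb3* was at 4.49 and 4.60, not above background, in WT and at 4.93 and 4.62 in E2F3LQ, where clone 2 alone was detected. *Adm* stood apart within E2F3LQ, at 7.70 in clone 2 and 6.51 in clone 4, with WT at 6.97 and 6.83.

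The last question was whether the starvation difference itself depended on the genotype, tested as the interaction. limma called 0 of the 30 genes and 0% of all features. A positive interaction, E2F3LQ minus WT, was found for 53.8% of all features. The interaction was negative for all of the 28 genes left without *Car9* and *Pfkfb3*, with medians of -0.48 for glycolysis and -0.54 for HIF genes. It was smallest in p for *Kdm3a* (-0.81), *Ndrg1* (-0.84), *Ddit4* (-0.58), *Aldoc* (-1.46), *Fam162a* (-0.84) and *Aldoa* (-0.46), each with a limma adjusted p of 1.00. The comparison uses the same proliferating arrays as the genotype comparison above. A dimmer passing *Pfkl* probe gave an interaction of 0.18, against -0.68 for the probe used. Without the array of proliferating clone 2 the interaction was positive for 15 of the 28 genes. Without that of clone 4, 5 genes were called, all lower, *Pfkl* (-1.47), *Aldoc* (-2.62), *Pdk1* (-1.59), *Vegfa* (-1.50) and *Fam162a* (-1.52), against 1.18% of features.

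Among the related genes outside the list, 0 of the 57 tested passed limma for either genotype comparison or the interaction. In proliferating cells *Loxl4* (-0.40) and *Tfrc* (0.81) had the smallest p, and in starved cells *Loxl2* (-0.83) and *Bhlhe40* (0.40), with limma adjusted p of 0.999 in proliferating and 1 in starved cells. The HIF-2α gene *Epas1* was not above background in proliferating WT cells. It was at 4.90 and 5.05 in starved WT cells, at least 1.17-fold higher than in proliferating ones, which did not pass (limma adjusted p = 0.253). *Vhl* was likewise not above background in proliferating WT cells.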

How the data were processed

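RNA from 4 MEF clones, each proliferating and serum-starved, was measured on 8 single-channel Illumina bead arrays, and groups were taken from the sample labels. As deposited by the authors, each probe had on every array a signal intensity exported from GenomeStudio, not visibly corrected for background or normalized, together with a detection p-value from the negative control beads. A table of normalized intensities that the authors also deposited served only as an alternative. How they were normalized is not given in the sources used here. The labels give Trizol and RNeasy extraction with culture without FBS, where the paper's methods name miRNeasy.

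Intensities were background-corrected with normexp on the negative-control detection p-values, quantile normalized and log2 transformed (neqc, offset 16) in limma 3.58.1 (R 4.3.3). This makes the distributions of all arrays equal, so a shift of most genes at once would not be seen. Of 25697 probes, 23978 carried 1 gene symbol and 1719 none. Probes detected at p under 0.05 on at least 2 arrays were kept (13666), and the brightest per gene gave 10214 features, 9430 of them named. The other 784 were kept without a name. One linear model over the 4 groups gave 6 comparisons with moderated statistics (4 residual and 3.27 prior degrees of freedom) and Benjamini-Hochberg adjustment over all 10214 features, with a threshold of 0.05. Intervals are 95%. The precision is limited by 2 arrays a group. A fold against a group below background is given only where both arrays of the brighter group were detected. It was computed as a lower bound, from the higher of the dimmest detected signal and the probe's own signal on each array. The fit was tested on simulated data.

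The same clones were measured in both conditions, so the clone label pairs the arrays. Deviations from the group means correlated at 0.0906 between conditions for WT and 0.291 for E2F3LQ, across features. The clone block was an alternative, as were other background corrections, median scaling, other detection filters, averaging the passing probes of a gene, an intensity trend, array weights, the methods' t-test, and leaving out each array. The genes with values on every array were *Hif1a*, *Vegfa*, those called or, with none called, the 6 with the smallest p in a comparison, and those below background. Of related genes, those called were named, otherwise the smallest p. The members, lists and rules were chosen with earlier results of these data known. Promoter windows are those of RefSeq (GRCm38.p6), and a window was not given for *Ndrg1*, *Bnip3l*, *Plod2* and *Lox*.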

Additional observations from a re-analysis of the deposited data

Results flagged for a closer look

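On the probes used, *Kdm3a* was the one member in which the genotypes separated without overlap in opposite directions in the 2 conditions. Both E2F3LQ clones lay above both WT clones while proliferating, with a mean difference of 0.65, and below both after starvation, with a mean difference of -0.16. Its other passing probes did not show this, with starved differences of 0.14 and 0.023. On the first of these, proliferating clone 4 lay between the WT clones, at 7.18 against 7.43 and 6.99. The reversal therefore depended on the probe. The interaction was -0.81 and did not pass limma (adjusted p = 1.00). Without the array of proliferating clone 2 it was -0.36. Groups of 2 arrays were too small to look for single outlying samples.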

How the results depend on the processing

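Genotype comparisons gave 0 called members under all alternatives that kept every array, and the interaction did too. The array weights were equal within each group, at 0.42 for both proliferating E2F3LQ clones, so they could not lower clone 2 alone. With the clone as a replicate block, 5 members were called for starvation averaged over genotypes (*Aldoc* was added), 2 in WT and 0 in E2F3LQ, and no other call changed. Over all features the block called 2233, 794 and 371, in place of 2288, 834 and 470. For the averaged comparison, other settings that kept every array called 3 to 6 members, 3 or all 4 of those called in the report among them. They called 2017 to 2382 of all features. In WT, in place of 2, median scaling called 1, no detection filter 0, array weights 4 and the methods' t-test 0 after adjustment, with 9 of 30 members at an unadjusted p under 0.05, all higher, against 21.7% of all features. In E2F3LQ median scaling called 1, *Pfkp*. The methods' t-test was not run for the interaction. Leaving out 1 array at a time gave 1 to 14 called members for the averaged comparison, 0 to 9 in WT, 0 to 17 in E2F3LQ, 0 to 18 for genotype in proliferating cells, 0 in starved cells and 0 to 5 for the interaction. The highest counts came without proliferating E2F3LQ clone 4 (in WT, equally without clone 2). In these fits the lone array of a group was taken to vary like the other groups, and the shared spread changed too. Leaving out both arrays of clone 2, chosen after seeing the data, gave 10 averaged, 8 in WT and 1 in E2F3LQ. *Vegfa* turned to -0.21 with the mean of its probes and lay between -0.12 and 0.60 when 1 array was left out. *Slc16a3* in starved cells turned to 0.11 with no detection filter, which chose another probe. The cause of the other changes was not tested. Over all features the t-test called 1 in WT and 0 in E2F3LQ, and array weights called 1824 and 136, in place of 834 and 470. Median scaling called 593 and 462, and no detection filter 765 and 433. Median scaling moved the median of all features to -0.13 for averaged starvation and 0.12 for genotype in proliferating cells, where all 30 members were then higher. *Car9*, *Pfkfb3*, *Slc16a3*, *Aldoc* and *Egln3* were at or near background on some arrays, which limits their differences.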
